A study of Mus musculus with 8 samples.

Results

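The genes described here are the chemokines, the chemokine receptors and the atypical chemokine receptors, measured with microarrays in mouse cumulus cells around ovulation. They were picked by a rule on names, and the choice was made with earlier results of these data known. A probe set, the group of short probes that reads 1 transcript, was kept if its platform annotation held a single symbol of the Ccl, Cxcl, Cx3cl1, Xcl1, Ccr, Cxcr, Cx3cr1, Xcr1 or Ackr families. This gave 48 probe sets for 43 genes, out of 12422 probe sets and 8251 genes on the array. The 48 divide into 29 for ligands (24 genes), 15 for receptors and 4 for atypical receptors. Ccl1, Cxcl1, Cx3cl1 and Cxcl12 have more than 1 probe set each.

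Cumulus cells are the somatic cells around the oocyte, which spread in a hyaluronan matrix before ovulation. They came from female C57Bl/6 mice of 3 to 4 weeks that were either Ptger2-/- (EP2KO), and so lacked EP2, a receptor for prostaglandin E2, or wild type (WT). The labels name no promoter or cell type that limits the deletion and do not say how many mice gave the cells of an array. All mice of both genotypes had 5 IU of PMSG, which drives follicle growth. They then had, 48 h later, 5 IU of hCG, which stands in for the LH surge that sets off ovulation, except at 0 h, where no hCG was given. Hours are counted from hCG, and each genotype has 1 array at each of 0, 3, 9 and 14 h, so 8 arrays in all and no replicate of any group. At 0, 3 and 9 h follicles were punctured and the cells stripped from the oocyte by hand, while at 14 h ovulated complexes were taken from the oviduct and freed with hyaluronidase. The change to 14 h and the change in collection therefore cannot be told apart. From 100 ng of RNA the label was made in rounds of amplification, so the signal reads relative RNA levels in a mixed sample. Fewer cells of a type and less RNA per cell cannot be told apart in such samples.

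Chemokines are small secreted proteins that draw leukocytes along a gradient. They act on receptors that couple to inhibitory G proteins, and the atypical receptors bind and remove chemokines without that coupling. Ovulation has features of an inflammation, with leukocytes entering the follicle wall, and cumulus cells themselves can make chemokines as they expand. Cumulus cells also make prostaglandin E2 around ovulation and carry EP2, so the comparison of EP2KO with WT cells asks how chemokine genes behave when EP2 is missing. It does not ask how they behave without prostaglandin E2 itself.

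Ptger2 itself, the deleted gene, served as a check of the labels. Its log2 signal was 4.57, 4.24, 4.69 and 4.51 in EP2KO cells (0, 3, 9 and 14 h), and 4.95, 5.97, 5.37 and 5.33 in WT cells. It was lower in EP2KO at all 4 times, with EP2KO minus WT differences of -0.38, -1.73, -0.68 and -0.82 on the log2 scale. All 8 values lie low on the array, and the genotype contrast of -0.90 did not pass (limma adjusted p = 0.528). The cumulus marker Inha, the alpha subunit of inhibin, lay between 12.34 and 14.37 on all arrays. Array medians spanned 7.79 to 7.89. The 3' minus 5' signal of Gapdh, a sign of shorter or less complete RNA when it is large, was 2.82 in EP2KO and 2.87 in WT at 14 h and between 0.80 and 1.86 at earlier times. That of Actb was also highest at 14 h within each genotype, but by less, with 1.37 in EP2KO and 1.61 in WT. At earlier times it was 0.69 to 1.12 in EP2KO and 0.73 to 1.54 in WT, so the WT 9 h array lay above the EP2KO 14 h array.

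Cxcl1 and Cxcl2, ligands of the neutrophil receptor Cxcr2, and Ccl9 (MIP-1 gamma), a rodent ligand of Ccr1, were among the genes with the widest changes described below. Their promoter windows are shown because they hold matches to the NF-kB consensus, the site of the factor through which inflammatory signals act on many chemokine genes. Each window runs from 250 bases before to 50 bases after the start given by RefSeq on GRCm38.p6, on the gene's own strand, with NF-kB matches on either strand in capitals. Cxcl1 lies at chr5:90890995-90891294 (plus strand), Cxcl2 at chr5:90903649-90903948 (plus strand) and Ccl9 at chr11:83578587-83578886 (minus strand).
Cxcl1: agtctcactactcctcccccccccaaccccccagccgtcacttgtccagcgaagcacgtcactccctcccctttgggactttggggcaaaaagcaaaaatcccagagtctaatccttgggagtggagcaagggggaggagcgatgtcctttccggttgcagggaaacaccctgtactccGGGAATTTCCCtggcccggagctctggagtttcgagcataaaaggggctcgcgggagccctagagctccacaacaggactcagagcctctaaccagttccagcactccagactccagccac
Cxcl2: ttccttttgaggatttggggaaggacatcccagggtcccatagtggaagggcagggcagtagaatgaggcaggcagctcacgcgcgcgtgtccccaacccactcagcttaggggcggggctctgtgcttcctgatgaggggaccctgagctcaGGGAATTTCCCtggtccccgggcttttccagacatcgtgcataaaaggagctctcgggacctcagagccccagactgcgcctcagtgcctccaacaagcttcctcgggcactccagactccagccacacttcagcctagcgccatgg
Ccl9: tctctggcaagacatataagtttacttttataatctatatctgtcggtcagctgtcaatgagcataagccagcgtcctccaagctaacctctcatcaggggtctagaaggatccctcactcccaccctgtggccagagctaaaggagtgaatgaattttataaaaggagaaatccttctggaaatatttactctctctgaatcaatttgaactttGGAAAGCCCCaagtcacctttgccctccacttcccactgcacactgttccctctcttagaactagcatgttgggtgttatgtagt
The run in capitals is the same 11 letters in Cxcl1 and Cxcl2, made of overlapping matches on the 2 strands. It lies 71 to 61 bases before the start in Cxcl1 and 97 to 87 bases before it in Cxcl2. In Ccl9 the match lies 35 to 26 bases before the start on the minus strand, and a TGANTCA match (AP-1) lies 53 to 47 bases before it. Windows were at hand for 35 of the 43 genes (37 windows); Ccl2 and Ccl7 are among those without one. The NF-kB consensus was found in 9 of the 37 windows (24.3%), and in 8.46% of 32851 windows of all genes. TGANTCA was found in 16.2% of the 37 and 7.81% of all, TATAAA in 32.4% and 13.6%, TTNCNNAA (C/EBP) in 51.4% and 40.7%, and TGACGTCA (CRE) in 0.0% and 1.79%. These searches covered both strands and were not tested. A match is no measure of use: Cxcl10, a ligand of Cxcr3 with 3 NF-kB matches, 2 of them overlapping, stayed between 4.44 and 4.80 on the 8 arrays.

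Most of these probe sets gave low signals, as did most of the array. For each array a background limit was taken as the 90th percentile of 66 probe sets of tissue-restricted genes (lens, retina, liver, muscle and the like), which gave 8.70 to 9.07. Some genes of that list did change here: 1 probe set of Mbp, the myelin basic protein, rose by 2.89 at 14 h against 0 h (limma adjusted p = 1.89e-06), and 1 of Krt10, a keratin of skin, fell by 1.29 at 14 h against 9 h (adjusted p = 4.71e-04), so the limits rest in part on genes that respond. Under this limit on all 8 arrays were 44 of the 48 probe sets, namely 25 of 29 for ligands, 15 of 15 for receptors and 4 of 4 for atypical receptors. Of all 12422 probe sets 61.6% were under it on all 8 arrays. Without Mbp and Krt10, a choice made after seeing the data, the number of members was 42, with Ccl4 and Ccl8 then over the limit on 1 and 2 arrays. With the 75th percentile as limit the number near background was 28, and with the lowest 40% of all probe sets it was 22, so that the label "near background" depends on the limit. A probe set under the limit can still change between arrays, and levels of different probe sets are not on 1 scale.

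The 4 probe sets over the limit were all for ligands. Ccl22 (102310_at), a ligand of Ccr4, was over it on all 8 arrays, with 9.55, 9.14, 9.44 and 9.73 in EP2KO cells (0, 3, 9 and 14 h) and 9.83, 9.11, 9.53 and 9.59 in WT cells. Cx3cl1 (98008_at), fractalkine, which is made as a membrane protein and can be shed, was over it on 5 arrays. The Cxcl1 probe sets 95348_at and 95349_g_at were over it on 2 arrays and 1 array, all of them EP2KO at 9 or 14 h. The range of a probe set over the 8 arrays had a median of 0.66 on the log2 scale, which is also the median of all 12422. It reached 1 or more in 11 of the 48 (22.9%), and in 25.8% of all.

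**Figure D1:**
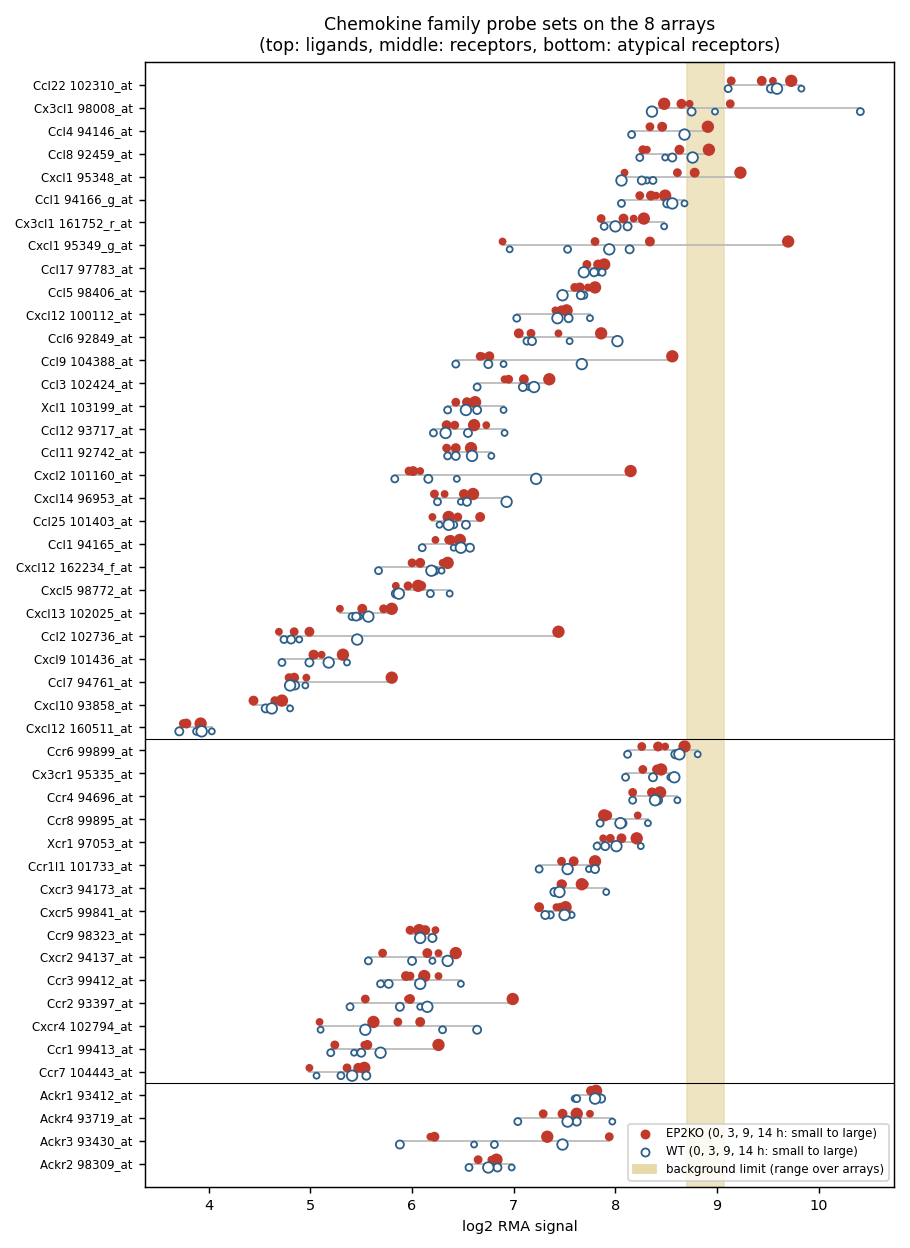
Log2 RMA signal of the 48 probe sets (x axis), by role and sorted by mean for display only; filled red points are EP2KO and open blue points WT, with 0, 3, 9 and 14 h from small to large. The shaded band is the background limit of 8.70 to 9.07, and only Ccl22, Cx3cl1 98008_at and the Cxcl1 probe sets pass the limit of an array.

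In the first 3 h after hCG 3 of the 48 probe sets rose, those of Cxcr4, Ackr3 and Cx3cl1, and 17 fell by small amounts. Times were compared with limma in a fit of time and genotype, which treats the EP2KO and WT arrays of a time as its 2 arrays, so that a response found in 1 genotype counts as error. A probe set is said to rise or fall where its p adjusted over all 12422 probe sets is under 0.05. Of all probe sets 42.8% passed at 3 h against 0 h, 17.4% higher and 25.4% lower. The 20 of 48 that passed are thus near the background share.

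Cxcr4, the receptor of Cxcl12, had a signal of 5.09, 5.86, 6.08 and 5.62 in EP2KO cells (0, 3, 9 and 14 h), and 5.10, 6.30, 6.64 and 5.54 in WT cells. It was lowest at 0 h and highest at 9 h in both genotypes, and the 2 arrays at 0 h lay below all others. It rose by 0.99 ± 0.16 (SE) at 3 h against 0 h (limma adjusted p = 0.00155) and kept this call under every alternative that tested it. Between 9 h and 14 h it fell by 0.78 (adjusted p = 0.0066), a call lost under 3 of 12 alternatives. This fall was lost without the WT 9 h array (-0.56, adjusted p = 0.0967) or the WT 14 h array (-0.57, adjusted p = 0.0748).

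Ackr3, an atypical receptor that takes up Cxcl12, shares that ligand with Cxcr4. Its signal was 6.18, 7.94, 6.22 and 7.33 in EP2KO cells (0, 3, 9 and 14 h) and 6.61, 6.81, 5.88 and 7.48 in WT cells. EP2KO peaked at 3 h, WT at 14 h, and the 2 arrays at 3 h differed by 1.13. The fit gave a rise of 0.98 ± 0.28 at 3 h against 0 h (limma adjusted p = 0.0203), a change of -1.33 at 9 h against 3 h (adjusted p = 0.0106) and a rise of 1.36 at 14 h against 9 h (adjusted p = 0.00653). With the EP2KO 3 h array left out the rise at 3 h was 0.38 (adjusted p = 0.198), and with the EP2KO 0 h array left out it was 0.55 (adjusted p = 0.217). The change at 9 h was -1.25 (adjusted p = 0.0614) when the WT 9 h array was dropped, and the rise at 14 h was 1.11 (adjusted p = 0.0601) when the WT 14 h array was dropped. None of the 3 probe sets of Cxcl12 itself rose, and 162234_f_at fell at 3 h, as given below. The probe set 100112_at lay at 7.03 to 7.75 and passed in no contrast. It changed by -0.72 in WT and 0.09 in EP2KO cells at 3 h against 0 h. The third, 160511_at, stayed at 3.71 to 4.03.

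Cx3cl1 (98008_at) had a signal of 8.73, 9.13, 8.65 and 8.48 in EP2KO cells (0, 3, 9 and 14 h), and 8.98, 10.41, 8.75 and 8.36 in WT cells. The WT 3 h array stood above the 7 others. It rose by 0.92 ± 0.26 at 3 h against 0 h (limma adjusted p = 0.0194) and fell by 1.07 at 9 h against 3 h (adjusted p = 0.019). Without the WT 3 h array these were 0.31 (adjusted p = 0.21) and -0.47 (adjusted p = 0.151). The change at 3 h was 0.83 (adjusted p = 0.161) when the WT 0 h array was dropped and 1.0 (adjusted p = 0.0692) when the EP2KO 0 h array was dropped. The change at 9 h was -0.89 (adjusted p = 0.154) when the WT 9 h array was dropped. The other Cx3cl1 probe set, 161752_r_at, went the other way. It gave 8.18, 7.86, 8.08 and 8.28 in EP2KO cells and 8.48, 7.89, 8.12 and 8.0 in WT cells, and fell by 0.46 at 3 h (adjusted p = 0.0285). The probe sets of this gene thus disagree. Cx3cr1, its receptor, stayed between 8.10 and 8.58 and passed in no contrast.

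The log2 changes of the 17 probe sets that fell at 3 h ran from -0.70 to -0.34. All tested probe sets had a median of -0.135 in this contrast, and of -0.025 with the lowest 40% left out, so the shift was weaker among brighter probe sets. The 48 had a median of -0.253. The tissue-restricted probe sets behaved alike, with 2 higher and 17 lower out of 66 and a median of -0.165. With the array medians set equal, 12 of the 48 passed, 4 higher and 8 lower, while over all probe sets the split went to 2394 higher and 2111 lower, against 2161 and 3152 as deposited. Without the WT 0 h array, or without the WT 3 h array, 3 of the 48 passed, and 16 of the 17 falls, all but that of Cxcr2, lost their call in either fit. Of 28 leukocyte marker genes 7 fell and none rose at 3 h (median -0.215), where 25.4% of all probe sets fell and 17.4% rose. The part of leukocytes in the falls of the 17 probe sets was not tested. These small falls are given next for the ligands and then for the receptors.

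Ccl22, with the values above, fell by 0.57 ± 0.13 (limma adjusted p = 0.00759), and lost its call without the WT 0 h array (-0.41, adjusted p = 0.0997) or the WT 3 h array (-0.51, adjusted p = 0.0706). Ccl12, a mouse ligand of Ccr2, had 6.73, 6.42, 6.34 and 6.61 in EP2KO cells (0, 3, 9 and 14 h) and 6.91, 6.21, 6.55 and 6.33 in WT cells. Ccl11, eotaxin, had 6.59, 6.34, 6.43 and 6.58 in EP2KO cells and 6.78, 6.35, 6.43 and 6.59 in WT cells. In all of these the 0 h arrays were above the 3 h arrays in both genotypes. Ccl1 (94166_g_at), a ligand of Ccr8, had 8.40, 8.24, 8.35 and 8.49 in EP2KO cells and 8.68, 8.06, 8.51 and 8.56 in WT cells, while its other probe set, 94165_at, did not pass. Xcl1, the ligand of Xcr1, had 6.60, 6.43, 6.54 and 6.62 in EP2KO cells and 6.90, 6.35, 6.64 and 6.53 in WT cells. Cxcl12 (162234_f_at), a ligand of Cxcr4, had 6.30, 6.0, 6.08 and 6.35 in EP2KO cells and 6.29, 5.67, 6.22 and 6.19 in WT cells. Here too both 3 h arrays were the lowest of their genotype. For these 5 probe sets the limma adjusted p ran from 0.0214 for Ccl12 to 0.0486 for Xcl1.

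Among receptors, Cxcr2, which binds Cxcl1 and Cxcl2 and marks neutrophils, fell by 0.59 ± 0.11 (limma adjusted p = 0.00304) and did so under every alternative that tested it. It had 6.26, 5.71, 6.15 and 6.43 in EP2KO cells (0, 3, 9 and 14 h) and 6.20, 5.57, 6.0 and 6.35 in WT cells. The genotypes moved alike, and it rose by 0.44 at 9 h against 3 h (adjusted p = 0.0236), a call lost without any 1 of the 3 h and 9 h arrays (0.41 to 0.46, lowest adjusted p 0.0533). Ackr4, an atypical receptor for Ccl19, Ccl21 and Ccl25, had 7.75, 7.29, 7.48 and 7.62 in EP2KO cells and 7.97, 7.04, 7.62 and 7.53 in WT cells. It fell by 0.70 ± 0.14 (adjusted p = 0.00377), the largest fall among the 48, and by 0.55 (adjusted p = 0.0613) without the WT 0 h array or 0.53 (adjusted p = 0.0546) without the WT 3 h array.

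The other receptors that fell at 3 h are known from leukocytes. Ccr3, the eotaxin receptor, had 6.26, 5.98, 5.94 and 6.12 in EP2KO cells (0, 3, 9 and 14 h) and 6.48, 5.69, 5.77 and 6.08 in WT cells. Ccr6, the receptor of Ccl20, had 8.49, 8.26, 8.42 and 8.68 in EP2KO cells and 8.81, 8.12, 8.59 and 8.63 in WT cells. Ccr8, the receptor of Ccl1, had 8.22, 7.88, 7.92 and 7.89 in EP2KO cells and 8.32, 7.85, 8.07 and 8.05 in WT cells. In each the 0 h arrays were above the 3 h arrays. Ccr4, the receptor of Ccl17 and Ccl22, had 8.45, 8.17, 8.36 and 8.44 in EP2KO cells and 8.61, 8.17, 8.42 and 8.39 in WT cells. Cxcr3, the receptor of Cxcl9 and Cxcl10, had 7.70, 7.48, 7.47 and 7.67 in EP2KO cells and 7.91, 7.40, 7.40 and 7.45 in WT cells. Ccr1l1, a relative of Ccr1, had 7.79, 7.47, 7.59 and 7.80 in EP2KO cells and 7.74, 7.25, 7.80 and 7.53 in WT cells. For these 6 receptors the limma adjusted p at 3 h ran from 0.0129 for Ccr3 to 0.0453 for Cxcr3. Ccr2 and Ccl6 also fell at 3 h and are described with the 14 h arrays.

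Between 3 h and 9 h few members moved. Cxcr2 rose and Ackr3 and Cx3cl1 (98008_at) fell, which makes 3 of 48, where 19.4% of all probe sets passed, 7.59% higher and 11.8% lower. The count was 0 without the WT 9 h array, 1 without the WT 3 h array and 5 without either 14 h array.

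**Figure D2:**
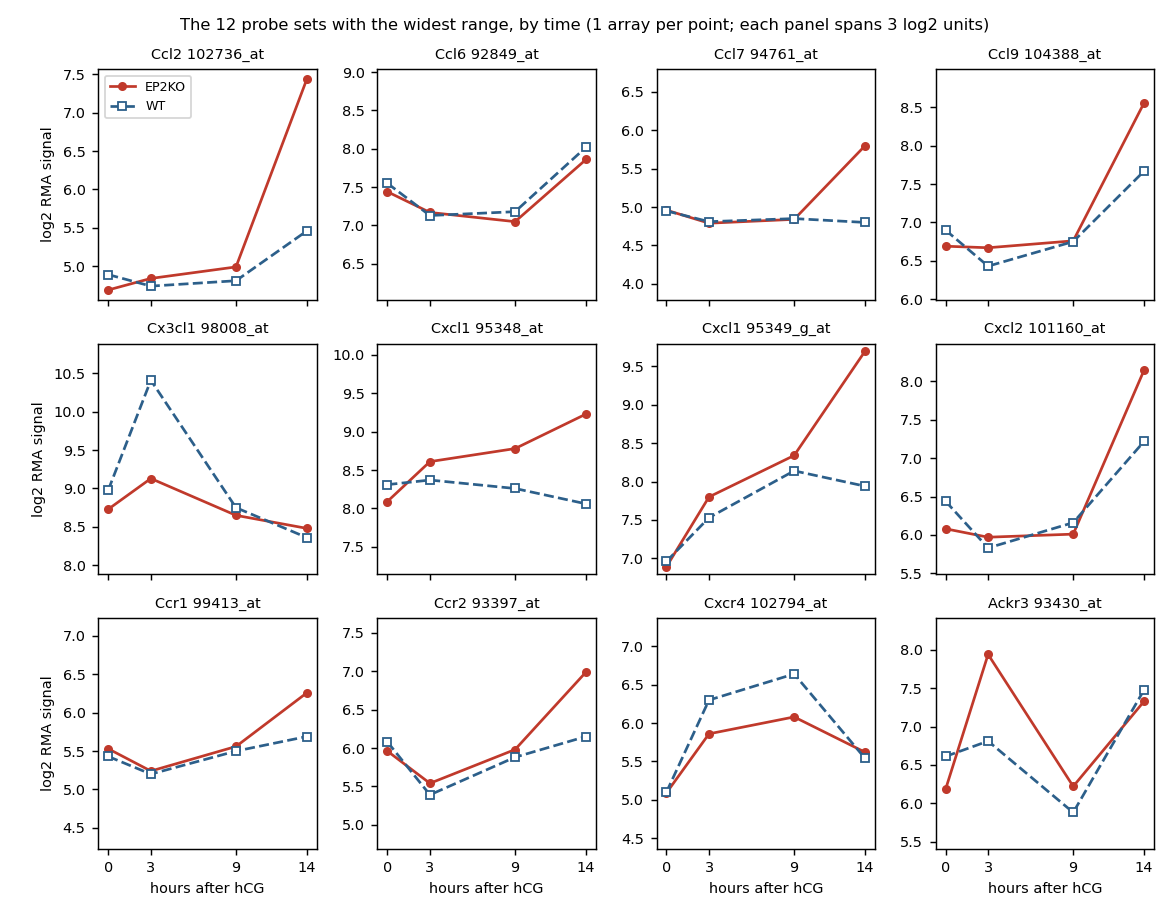
Log2 RMA signal (y axis) against hours after hCG (x axis) for the 12 probe sets with the widest range; solid red lines with circles are EP2KO and dashed blue lines with squares WT, 1 array per point, and each panel spans the same height. Ccl2, Ccl7, Ccl9, Cxcl1 and Cxcl2 lie highest on the EP2KO 14 h array, Cx3cl1 on the WT 3 h array and Ackr3 on the EP2KO 3 h array.

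After ovulation, at 14 h, the ligands Ccl2, Cxcl1, Cxcl2 and Ccl9 rose by 1.32 to 1.90 on the log2 scale against 0 h, and all 4 read higher in EP2KO than in WT cells at that time. Ligands that did not pass against 0 h include Cxcl10 (-0.08), Ccl5 (-0.07), Ccl4 (0.22) and Ccl3 (0.25). Against 0 h 11 of the 48 probe sets passed, all of them higher, where 28.8% of all probe sets passed, 13.5% higher and 15.2% lower. Against 9 h 7 passed, 6 higher and 1 lower, where 20.1% of all passed, 10.0% higher and 10.1% lower. The 11 against 0 h became 3 when the EP2KO 0 h array was dropped, 6 when the WT 0 h array was dropped and 7 when the EP2KO 14 h array was dropped.

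Ccl2 (102736_at), or MCP-1, the main ligand of the monocyte receptor Ccr2, had a signal of 4.69, 4.84, 4.99 and 7.44 in EP2KO cells (0, 3, 9 and 14 h), and 4.89, 4.74, 4.81 and 5.46 in WT cells. The 6 arrays up to 9 h lay within 0.30 of each other, and the EP2KO 14 h array stood 1.98 above the WT 14 h array. That difference was the highest of all 12422 probe sets at 14 h. The change from 0 h was 2.75 in EP2KO and 0.57 in WT cells, and the fit over both gave a rise of 1.66 ± 0.39 (limma adjusted p = 0.00953). Without the EP2KO 0 h array it was 1.18 (adjusted p = 0.142). Against 9 h it rose by 1.55 (adjusted p = 0.0184), and by 1.33 (adjusted p = 0.0891) without the EP2KO 9 h array; on the 4 arrays of 9 h and 14 h alone its adjusted p was 0.187. Even the highest value lay under the background limit of its array, 9.07.

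Cxcl1, or KC, is read by 2 probe sets, which are not separate evidence since they report the same gene. For 95349_g_at the signal was 6.89, 7.80, 8.34 and 9.70 in EP2KO cells (0, 3, 9 and 14 h), and 6.96, 7.53, 8.14 and 7.94 in WT cells. It climbed at every step in EP2KO cells, while in WT cells it was highest at 9 h. It rose by 1.90 ± 0.34 at 14 h against 0 h (limma adjusted p = 0.00172) and did so under every alternative run. For 95348_at the signal was 8.09, 8.61, 8.78 and 9.23 in EP2KO cells and 8.31, 8.37, 8.26 and 8.06 in WT cells. Again EP2KO climbed, and WT did not, and the 14 h change of 0.45 did not pass (adjusted p = 0.219). The EP2KO minus WT difference at 14 h was 1.76 and 1.17 for these probe sets, ranks 4 and 13 of 12422.

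Cxcl2, or MIP-2, which lies next to Cxcl1 among the members on chromosome 5, had 6.08, 5.97, 6.01 and 8.15 in EP2KO cells (0, 3, 9 and 14 h) and 6.44, 5.83, 6.16 and 7.22 in WT cells. Ccl9 had 6.69, 6.67, 6.76 and 8.56 in EP2KO cells and 6.90, 6.43, 6.75 and 7.67 in WT cells. In both genes the 2 arrays at 14 h were above all 6 others, and EP2KO was above WT by 0.93 for Cxcl2 and 0.89 for Ccl9, ranks 25 and 28 of 12422. Against 9 h Cxcl2 rose by 1.60 ± 0.24 (limma adjusted p = 9.58e-04) and Ccl9 by 1.36 ± 0.21 (adjusted p = 0.00115). On the 4 arrays of 9 h and 14 h alone the adjusted p was 0.0902 for Cxcl2 and 0.0864 for Ccl9. Against 0 h the rises were 1.43 (adjusted p = 0.00136) and 1.32 (adjusted p = 9.52e-04), and both held under every alternative that tested them.

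Ccl7, or MCP-3, another ligand of Ccr2 and the neighbour of Ccl2 among the members on chromosome 11, had 4.96, 4.79, 4.84 and 5.80 in EP2KO cells (0, 3, 9 and 14 h) and 4.95, 4.81, 4.85 and 4.80 in WT cells. The EP2KO 14 h array was the only one above 4.96, and the difference of 1.0 ranked 19 of 12422. No time contrast of Ccl7 passed. Along chromosome 11 the EP2KO minus WT differences at 14 h were, in gene order, 1.98 for Ccl2, 1.0 for Ccl7, -0.01 for Ccl11, 0.28 for Ccl12 and 0.16 for Ccl8. Farther along came -0.01 and -0.07 for the Ccl1 probe sets, 0.32 for Ccl5, 0.89 for Ccl9, -0.16 for Ccl6, 0.15 for Ccl3 and 0.23 for Ccl4. High differences thus stood beside genes with differences near 0. On chromosome 5 the order was 0.19 for Cxcl5, then Cxcl1 and Cxcl2, then 0.14 for Cxcl9, 0.10 for Cxcl10 and 0.23 for Cxcl13.

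Other ligands rose at 14 h with EP2KO minus WT between -0.33 and 0.16 at that time. Ccl6, which in rodents is a relative of Ccl9, had 7.44, 7.17, 7.05 and 7.86 in EP2KO cells (0, 3, 9 and 14 h) and 7.55, 7.13, 7.18 and 8.02 in WT cells. Both 14 h arrays were above all others. It rose by 0.83 ± 0.12 against 9 h under every alternative run (limma adjusted p = 6.20e-04), and by 0.45 against 0 h (adjusted p = 0.0157). Ccl8, or MCP-2, had 8.31, 8.27, 8.63 and 8.92 in EP2KO cells and 8.49, 8.24, 8.56 and 8.76 in WT cells, a rise of 0.44 against 0 h (adjusted p = 0.0225). Cxcl14 had 6.32, 6.22, 6.51 and 6.60 in EP2KO cells and 6.48, 6.25, 6.54 and 6.93 in WT cells, a rise of 0.37 (adjusted p = 0.0497). The calls against 0 h were lost for Ccl6 when either 0 h array or the WT 14 h array was dropped (0.40 to 0.46, adjusted p from 0.072 to 0.105). Ccl8 lost its call when the EP2KO 0 h or 14 h array was dropped (0.31 and 0.35, adjusted p = 0.17 and 0.16), and Cxcl14 when a 0 h array, a 9 h array or the WT 14 h array was dropped (0.24 to 0.38, adjusted p from 0.087 to 0.354).

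Of the receptors of these ligands, some passed in a contrast with 14 h and others did not. Cxcr2, the receptor of Cxcl1 and Cxcl2, did not pass against 0 h (0.16, limma adjusted p = 0.333) or against 9 h (0.315, adjusted p = 0.0786). Its EP2KO minus WT difference at 14 h was 0.08. Ccr2 passed against 9 h but not against 0 h (0.55, adjusted p = 0.0578). Ccr2, the receptor of Ccl2 and Ccl7 on monocytes, had 5.96, 5.54, 5.98 and 6.99 in EP2KO cells (0, 3, 9 and 14 h) and 6.08, 5.39, 5.88 and 6.15 in WT cells. Ccr1, the receptor of Ccl9 and Ccl3 among others, had 5.53, 5.24, 5.56 and 6.26 in EP2KO cells and 5.43, 5.20, 5.50 and 5.69 in WT cells. In both the EP2KO 14 h array was the highest of the 8, by 0.84 above WT for Ccr2 and 0.57 for Ccr1. Ccr2 fell by 0.56 at 3 h against 0 h (limma adjusted p = 0.0415) and rose by 0.64 at 14 h against 9 h (adjusted p = 0.0413), which was 0.24 (adjusted p = 0.431) without the EP2KO 14 h array and 0.55 (adjusted p = 0.242) or 0.74 (adjusted p = 0.073) when the EP2KO or the WT 9 h array was dropped. Its fall was lost when the WT 0 h, WT 3 h or EP2KO 3 h array was dropped (-0.62 to -0.31, adjusted p from 0.13 to 0.379). Ccr1 rose by 0.50 at 14 h against 0 h (adjusted p = 0.0288), which was 0.24 (adjusted p = 0.30) without the EP2KO 14 h array and 0.43 (adjusted p = 0.159) or 0.56 (adjusted p = 0.0949) when the EP2KO or the WT 0 h array was dropped. Ccr7, which guides dendritic cells, had 4.99, 5.36, 5.47 and 5.53 in EP2KO cells and 5.06, 5.30, 5.55 and 5.41 in WT cells, a rise of 0.45 at 14 h against 0 h (adjusted p = 0.0164). It was lowest at 0 h in both genotypes, and without the EP2KO 14 h array the rise was 0.37 (adjusted p = 0.122). It was 0.39 (adjusted p = 0.098) or 0.50 (adjusted p = 0.0536) when the EP2KO or the WT 0 h array was dropped. Cxcr4 and Ackr3 were also higher at 14 h than at 0 h, by 0.49 (adjusted p = 0.049) and 1.01 (adjusted p = 0.0222). Without the EP2KO 14 h array the Cxcr4 change was 0.28 (adjusted p = 0.352), and with the EP2KO 0 h array left out the Ackr3 change was 0.58 (adjusted p = 0.258). The Cxcr4 change was 0.63 (adjusted p = 0.0687) or 0.34 (adjusted p = 0.343) when the EP2KO or the WT 0 h array was dropped, and that of Ackr3 was 0.76 (adjusted p = 0.169) when the WT 14 h array was dropped.

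**Figure D3:**
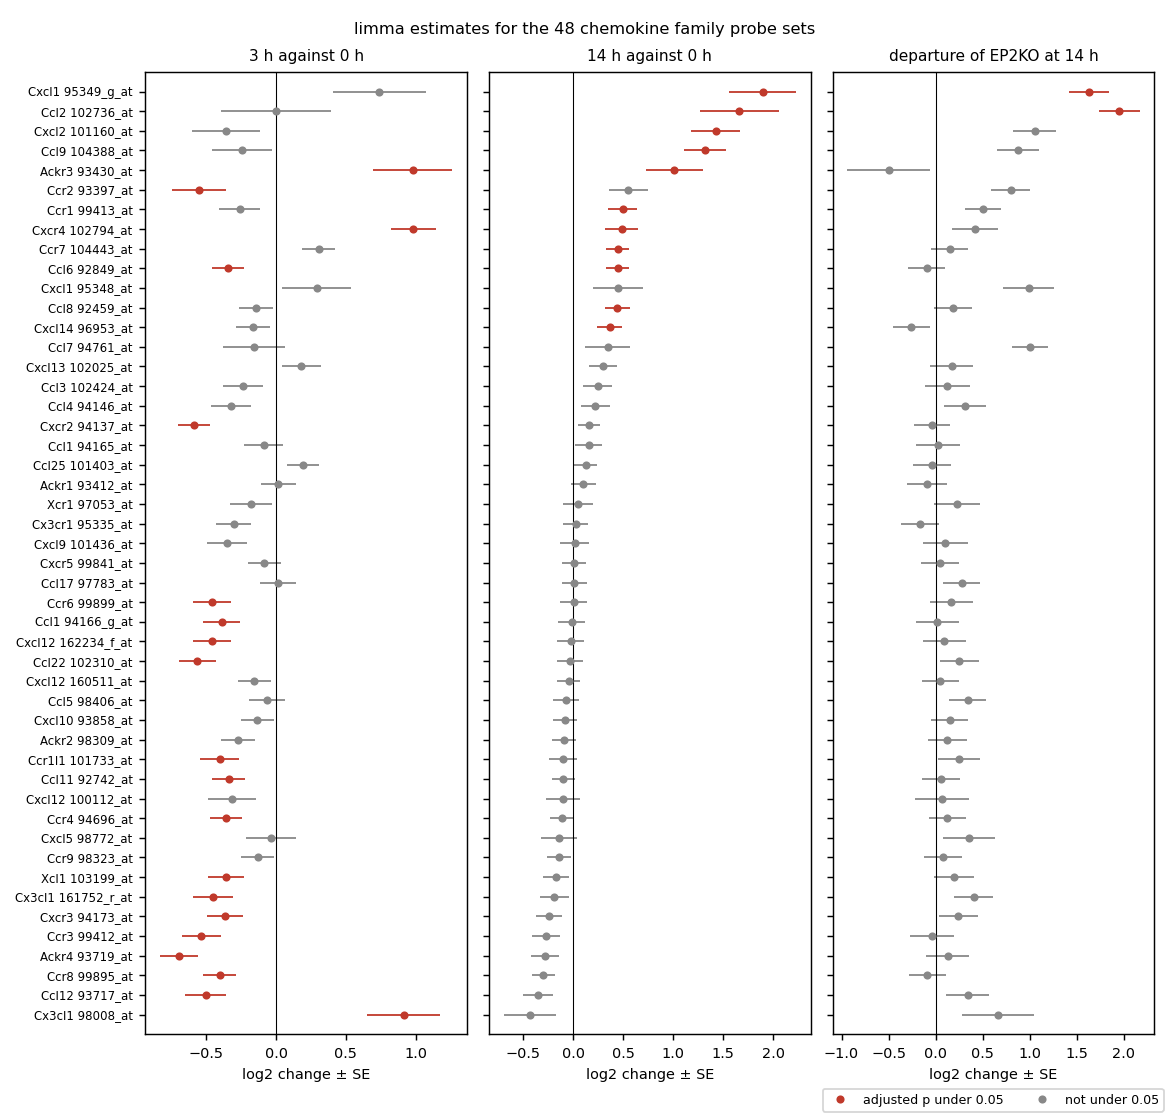
Log2 change with its SE (x axis) from limma for the 48 probe sets, at 3 h against 0 h (left), at 14 h against 0 h (middle) and for the departure of EP2KO at 14 h (right), sorted by the middle panel; red points passed an adjusted p of 0.05. At 3 h most red points lie left of 0, at 14 h all 11 lie right of it, and in the right panel Ccl2 and Cxcl1 95349_g_at are red.

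The genotypes were compared first over all times. In this contrast 0 of the 48 probe sets passed, as did 0 of 12422 (0.0%), with limma. At an unadjusted p under 0.05 there were 2 of the 48 and 642 of all, and a prior that follows mean expression also gave 0. The lowest adjusted p among the 48 was 0.948. No chemokine gene was thus shown to differ between EP2KO and WT cells at all times alike.

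At single times there is 1 array per genotype and no test. Differences of at least 1 on the log2 scale were counted. At 0 h and 9 h no member reached this, where 0.0242% of all probe sets were higher by as much and 0.0161% lower at 0 h, and 0.0403% and 0.0886% at 9 h. At 3 h Ackr3 was higher and Cx3cl1 (98008_at) lower in EP2KO, where 0.0644% of all probe sets were higher by as much and 0.403% lower. At 14 h Ccl2, Ccl7 and both Cxcl1 probe sets were higher in EP2KO and none was lower, where 0.169% of all were higher by as much and 0.0483% lower. Ccl7 lies just at the bound of 1.0, and Cxcl2, Ccl9 and Ccr2 lie just under it. With the array medians set equal, or after quantile normalization, the count at 14 h was 3.

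Many of the 48 leaned the same way at a time. In EP2KO 8 were higher and 40 lower at 0 h, 36 higher and 11 lower at 3 h, 20 higher and 27 lower at 9 h, and 37 higher and 10 lower at 14 h. Of all probe sets 45.2%, 53.5%, 45.2% and 53.1% were higher in EP2KO at these times. After quantile normalization the members' counts were 12 higher and 36 lower at 0 h, and 23 higher and 25 lower at 9 h. The medians of EP2KO minus WT were -0.18, 0.10, -0.03 and 0.12. The tissue-restricted probe sets leaned to the same side at each time, with medians of -0.16, 0.05, -0.06 and 0.08, given in the same order of times.

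A test of a single time was possible only against the other times. It asks whether EP2KO minus WT at that time departs from its mean at the 3 others, whose spread is the error. At 14 h Ccl2 departed by 1.95 ± 0.22 and Cxcl1 95349_g_at by 1.63 ± 0.21 (limma adjusted p = 0.0357 for both). They are 2 of the 48, where 10 of 12422 probe sets passed (0.0805%), 8 of them higher in EP2KO (0.0644%) and 2 lower (0.0161%). Cxcl2 (1.05, adjusted p = 0.228), Ccl7 (1.01, adjusted p = 0.172), Cxcl1 95348_at (0.99, adjusted p = 0.373), Ccl9 (0.88, adjusted p = 0.351) and Ccr2 (0.80, adjusted p = 0.351) did not pass.

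The 2 calls depend on how the arrays are scaled and on their number. With the array medians set equal the departures were 1.93 and 1.60 and no probe set passed (adjusted p = 0.0951 for both). Leaving out any 1 array before 14 h removes that time from the error, and then no probe set passed either. The departures stayed at 1.84 to 2.03 for Ccl2 and 1.53 to 1.70 for Cxcl1, with adjusted p from 0.38 to 0.847. The departure rests on 1 EP2KO and 1 WT array at 14 h, and the spread between samples of that time was not measured.

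At 3 h and 9 h the departure passed in 0 of the 48 probe sets and in 0 of all (0.0%) with limma. At an unadjusted p under 0.05 there were 3 of the 48 and 891 of all at 3 h, and 0 and 131 at 9 h. A prior that follows mean expression called 4 of all at 3 h and none of the 48. Cx3cl1 (98008_at) departed by -1.20 ± 0.21 at 3 h (adjusted p = 0.196) and Ackr3 by 1.21 ± 0.28 (adjusted p = 0.315). Ptger2 itself departed by -1.10 there (adjusted p = 0.254).

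Leukocyte markers moved at 14 h as well. Of 28 measured marker genes 10 rose and none fell at 14 h against 0 h with limma, where 13.5% of all probe sets rose and 15.2% fell. At 14 h 23 of the 28 read higher in EP2KO than in WT, with a median of 0.285 and a range of -0.18 to 1.09. So did 53.1% of all probe sets and 50 of the 66 tissue-restricted ones, the latter with a median of 0.08. The summed signal of the leukocyte markers, on the log2 scale, was 12.42, 12.19, 12.36 and 13.11 in EP2KO cells (0, 3, 9 and 14 h), and 12.54, 12.15, 12.40 and 12.75 in WT cells. At 14 h S100a8, a neutrophil protein, had 9.24 in EP2KO and 8.16 in WT, and Lyz2, the lysozyme of myeloid cells, had 7.65 in EP2KO and 6.56 in WT. Cd53, a leukocyte membrane protein, had 8.0 in EP2KO and 7.15 in WT. The EP2KO 14 h array was the highest of the 8 for these 3 markers and for the summed signal, as for Ccl2 and Cxcl1. None of the 28 passed for a departure at 14 h.

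The defining marker of all leukocytes, Ptprc (CD45), stayed at 5.53 to 5.86 and Itgam (CD11b) at 6.46 to 7.30. The B cell marker Cd79b lay at 6.22 to 6.70 and the T cell marker Cd3e at 7.69 to 8.56. All of these are under the background limit. Cd68, of macrophages, lay at 7.02 to 8.30 and rose by 0.62 at 14 h against 0 h (limma adjusted p = 0.0104). Markers that moved were mostly under the limit too. Cd68, Lyz2 and Cd53 were under it on all 8 arrays, and S100a8 was over it only on the EP2KO 14 h array, where the limit was 9.07. The part of leukocytes, and of the 3' minus 5' signal given above, in the 14 h chemokine values was not tested.

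At 14 h the complexes had been in the oviduct, and of 8 oviduct epithelium genes 4 rose, 3 did not pass and 1 fell against 0 h with limma. Of all probe sets 13.5% rose and 15.2% fell in this contrast. The oviduct epithelium gene that fell was Foxj1, a transcription factor of ciliated cells (-0.42, adjusted p = 0.0252). Ovgp1, oviductin, stood at 11.46 in EP2KO and 11.13 in WT at 14 h, a rise of 3.65 against 0 h (adjusted p = 1.63e-07). Krt18, a keratin of simple epithelia, had 8.79 in EP2KO and 7.22 in WT at 14 h. It departed at 14 h by 1.76 (adjusted p = 0.0357), so it is among the 10 probe sets with Ccl2 and Cxcl1. The part of these cells in the chemokine values was not tested. Of the other lists, at 14 h against 0 h, theca and stroma had 0 of 11 passing, endothelium 1 higher and 1 lower of 9, erythroid genes 1 higher of 5 and oocyte genes 0 of 7. The cumulus and granulosa list had 3 higher and 8 lower of 13. Earlier arrays of the 2 genotypes also differed in some lists. Of 5 erythroid genes 2 were higher and 3 lower in EP2KO at 3 h, and 1 higher and 4 lower at 9 h. Their lowest differences were -1.21 and -2.45. All 7 oocyte genes, each under the background limit, were higher in EP2KO at 3 h (median 0.40) and lower at 9 h (median -0.13). The part of these cells in the chemokine values at 3 h and 9 h was not tested.

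**Figure D4:**
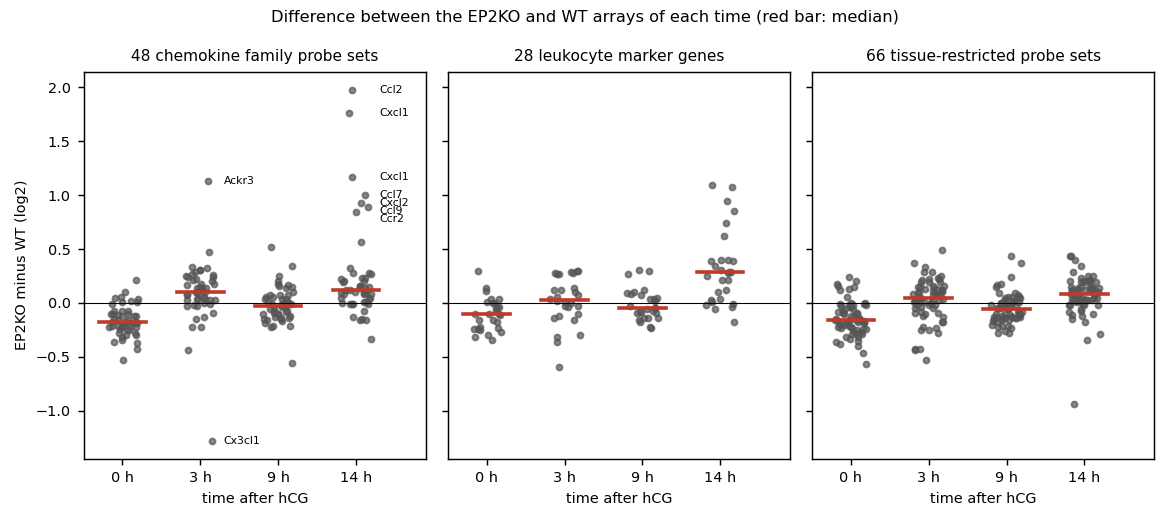
EP2KO minus WT in log2 units (y axis) at each time after hCG (x axis), 1 point per probe set or gene, for the 48 chemokine family probe sets, 28 leukocyte marker genes and 66 tissue-restricted probe sets; red bars are medians. At 14 h Ccl2 and Cxcl1 reach 1.98 and 1.76 and the leukocyte markers have a median of 0.285, against 0.08 for the tissue-restricted probe sets.

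Some genes that act upstream of chemokines changed with time. Of 22 measured genes of the NF-kB pathway and its inducers, 6 rose and 4 fell at 3 h against 0 h, and 8 rose and none fell at 14 h against 0 h, with medians of 0.03 and 0.29. The 10 at 3 h are near the share of all probe sets that passed (42.8%). At 14 h against 0 h 13.5% of all probe sets rose and 15.2% fell. Il1r1, the interleukin-1 receptor, had 8.81, 10.51, 9.44 and 10.90 in EP2KO cells (0, 3, 9 and 14 h) and 8.09, 10.91, 9.38 and 10.90 in WT cells, and so was equal in the genotypes at 14 h. It rose by 2.45 at 14 h against 0 h (limma adjusted p = 1.38e-05). The transcription factor Cebpb rose by 1.05 (adjusted p = 0.00341), Il1b, the cytokine interleukin-1 beta, by 0.92 (adjusted p = 0.00139) and Nfkb2 by 0.80 (adjusted p = 0.00313). At 14 h 18 of the 22 read higher in EP2KO, with a median of 0.15. So did 53.1% of all probe sets and 50 of the 66 tissue-restricted ones. None of the 22 passed for a departure.

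Downstream of the receptors, 13 of 30 measured signalling genes rose and 1 fell at 14 h against 0 h with limma, and 5 rose and 4 fell at 3 h. Of all probe sets 13.5% rose and 15.2% fell at 14 h, and 17.4% rose and 25.4% fell at 3 h. Ptk2b, a kinase that acts in cell migration, rose by 2.61 at 14 h (adjusted p = 6.02e-07), Gnai2, an inhibitory G protein subunit, by 1.14 and Gnb1, a G protein beta subunit, by 1.03. At 14 h 15 of them read higher in EP2KO and 15 lower, with a median of 0.01 and a range of -0.55 to 0.29. Among 12 genes that clip or bind chemokines, 6 rose and none fell at 14 h against 0 h, beside the same 13.5% and 15.2% of all probe sets. Gpc1, Sdc1 and Sdc4, heparan sulphate proteoglycans that hold chemokines at the cell surface, rose by 1.52, 1.43 and 1.33, and Adam10, a protease that sheds Cx3cl1, by 1.20 (adjusted p = 2.80e-04 for Adam10). None of these 12 passed for a departure at any time, and the median of EP2KO minus WT at 14 h was -0.02.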

How the data were processed

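Signals were read on Affymetrix MG_U74Av2 arrays. RMA is named in the submitters' processing notes, with no version in the sources used here. The authors deposited log2 signals with 2 decimals, which were taken unchanged, with no constant added and no filter. The labelling protocol names WT RNA and was taken to cover all 8 arrays. Of 12488 probe sets 66 Affymetrix controls were left out. Symbols came from the platform annotation, and all 48 equal the RefSeq symbol of their gene ID. RMA pulls low signals together, so changes near background can be understated. The most alike arrays had 2.54% of values equal. The number of arrays limits the precision, and p-values measure only the spread between these arrays, which may be technical.

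Tests used limma 3.58.1 in R 4.3.3 (lmFit, eBayes) on all 8 arrays, two-sided, with Benjamini-Hochberg adjustment over 12422 probe sets and a threshold of 0.05. Time contrasts and the genotype contrast came from time and genotype as additive terms (3 residual degrees of freedom). Departures added the interaction of genotype with 1 time (2 residual degrees of freedom). The median SE was 0.13 for a time contrast, 0.0917 for genotype and 0.208 for the 14 h departure. The code was tested on simulated data. Alternatives were setting the array medians equal, quantile normalization, leaving out the lowest 40% of probe sets, a trended prior, leaving out each array, fits on the 4 arrays of 2 times, and other background limits; leaving out both 14 h arrays, and leaving Mbp and Krt10 out of the list behind the limit, were chosen after seeing the data. For a gene in a list the probe set of highest mean was used, and for the tissue-restricted list all 66 probe sets of its 50 measured genes.

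Every member could be named. Values of every array are given for members past the threshold in a contrast, and for those over background that differ by at least 1 between genotypes. From the lists of other genes, up to 4 of those that passed were named by size of change, besides Ptger2 and the defining leukocyte markers. Inha, Krt18, Foxj1, Mbp, Krt10, Ccrl2 and the chemokine probe sets with several symbols were named after their values were seen. The members and all lists were chosen with earlier results of these data known.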

Additional observations from a re-analysis of the deposited data

Results flagged for a closer look

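The probe sets of 2 genes are listed here because their EP2KO minus WT difference at 14 h departed from that at 0, 3 and 9 h in a test of the difference itself. Ccl2 (102736_at), with 7.44 in EP2KO and 5.46 in WT cells at 14 h, departed by 1.95 on the log2 scale (limma adjusted p = 0.0357). Cxcl1 (95349_g_at), with 9.70 in EP2KO and 7.94 in WT cells, departed by 1.63 (adjusted p = 0.0357). Neither passed once the array medians were set equal or any 1 earlier array was left out. Of the markers, 10 of 28 leukocyte genes and 4 of 8 oviduct epithelium genes also rose at 14 h against 0 h, where 13.5% of all probe sets rose. The part of these cells in the Ccl2 and Cxcl1 values was not tested.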

How the results depend on the processing

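The departures of Ccl2 and Cxcl1 (95349_g_at) at 14 h kept their direction under every alternative run, and the 2 calls were also made after quantile normalization (adjusted p = 0.0414) and with a trended prior. The number of the 48 called was 0 with the array medians set equal, 0 with the lowest 40% of probe sets left out, where Ccl2 was not tested and Cxcl1 had an adjusted p of 0.0628, and 0 to 0 over the 6 fits that left out 1 array. The genotype contrast and the departures at 3 h and 9 h called 0 of the 48 under all alternatives. At 3 h against 0 h the count of 20 became 12 with equal medians, 11 of 22 tested with the lowest 40% left out, 7 on the 4 arrays of these times, and 3 to 21 with 1 array left out. At 9 h against 3 h the 3 became 1 with the lowest 40% left out, 5 with both 14 h arrays left out, and 0 to 5 with 1 array left out. At 14 h against 9 h the 7 became 1 of 22, 2 on the 4 arrays, and 5 to 8. At 14 h against 0 h the 11 became 3 of 22, 6 on the 4 arrays, and 3 to 12. The filter tests fewer probe sets by construction; the cause of the other moves was not tested. Near background were 44, which became 28 or 22 under the other limits and 42 without Mbp and Krt10. Of 340 single calls recomputed with 1 array left out, 232 were kept and 108 lost the threshold; under other settings 159 of 210 were kept and 51 lost it. No call changed direction. Some calls were lost under more alternatives than are named above. Among them are Cxcr4 at 14 h against 9 h (3 of 12) and Ackr3 at 3 h against 0 h (3 of 13). The calls of Cxcr4, Ccr1 and Ccr7 at 14 h against 0 h were each lost under 4 of 12. No paired analysis was possible because every group has 1 array and the labels tie no EP2KO mouse to a WT mouse. Signals near background limit most of these values.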

Other observations

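Some chemokine genes lie outside the name rule. Probe sets with several symbols read the Ccl27, Ccl21 and Ccl19 gene copies, which share sequence and cannot be told apart. The Ccl27 probe set 100972_s_at had 7.47, 7.73, 7.52 and 7.13 in EP2KO cells (0, 3, 9 and 14 h) and 7.28, 7.86, 7.49 and 7.04 in WT cells, highest at 3 h in both genotypes. The Ccl27 probe set 100973_i_at was also highest at 3 h, with 7.06 in EP2KO and 7.30 in WT cells. The Ccl21 probe set lay at 6.95 to 7.27 and the Ccl19 probe set at 7.34 to 7.91. Ccrl2, a receptor that binds chemerin and presents it to other cells, had 8.72, 8.83, 8.78 and 9.05 in EP2KO cells and 8.89, 8.70, 8.91 and 9.0 in WT cells, with no difference over 0.17 between the genotypes at any time.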
